A study of Homo sapiens with 18 samples.

Results

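Antisense long noncoding RNAs are transcribed from the strand opposite a named gene, and their symbols carry the stem of that gene followed by AS and a number. Of the 15747 genes in the authors' deposited table of cytoplasmic and polysomal RNA, 344 were selected by a symbol of that form and a mean normalized count of at least 20 in the cytoplasm. OIP5-AS1 was left out, and 47 of the 392 symbols of that form lay under the minimum. The count is the authors' mean over the 6 cytoplasmic libraries, scaled for depth. Just outside the minimum stood NEXN-AS1 at 19.6, USP27X-AS1 at 19.9 and HOXB-AS3 at 19.95 in the authors' deposited table. Just inside stood OSGEPL1-AS1 at 20.1, BTG3-AS1 at 20.1 and PANK2-AS1 at 20.2 in the authors' deposited table.

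The cells were DU145, a human line from a prostate carcinoma metastasis that lacks the androgen receptor, and all groups were of this 1 line. They were treated for 24 h with 40 µM GC7 (N1-guanyl-1,7-diaminoheptane), which inhibits deoxyhypusine synthase, or with vehicle, and RNA of whole cells, of the cytoplasm and of heavy polysomes was sequenced from each treatment, with 3 libraries for each of these 6 groups. Deoxyhypusine synthase starts the conversion of a lysine in the translation factor eIF5A to hypusine, which the factor needs to relieve stalled ribosomes. For the fractions, cells received emetine, which freezes ribosomes on RNA, nuclei and mitochondria were spun out of the lysate, and polysomes were taken from sucrose gradients.

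Antisense RNAs often start close to the start of the gene they oppose, are usually spliced and carry a cap and a poly(A) tail. Some remain at the site of transcription, where they can act on the neighbouring gene, and others leave the nucleus. A cytoplasmic long noncoding RNA can be bound by ribosomes through short open reading frames, and such RNAs are among the known substrates of nonsense-mediated decay.

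The authors deposited comparison tables, so no value per library, no depth and no spread of these samples was used here. The labels do not say whether libraries came from separate cultures, and p-values then measure no more than how these libraries scatter, which may be technical in origin. Which treatment is the numerator is not given in either table. Genes in the category UP were taken to be higher with GC7, and the whole-cell values were reversed in sign because across 14099 genes they ran against both fractions as deposited (Pearson r of -0.39 with cytoplasm and -0.45 with polysomes). Every direction with GC7 rests on this reading. Whether reads were counted by strand is not given in the sources used here, and without strand the reads of an antisense RNA and of the overlapping gene cannot be told apart. In RNA from many cells, fewer cells with a transcript and less of it per cell cannot be told apart. All 6 listed epithelial markers were measured, and KRT8 stood at 32028 and KRT18 at 41006 normalized counts in the cytoplasm of the authors' deposited table. Of 8 markers of blood, vessel and stromal cells, the 2 measured were COL1A1 at 62.5 and COL1A2 at 26.1, and neither was called as changed in the authors' deposited table.

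In the GENCODE 44 annotation of GRCh38, 342 of the antisense RNAs were found, 323 by symbol and 19 by a RefSeq synonym, and 16 of the latter are now named as divergent transcripts. For 335 a gene of the same stem was annotated. Of these pairs, 122 were head-to-head, with starts at most 1000 bases apart on opposite strands. In 209 the genes overlapped with starts farther apart, at a median distance of 25817 bases, and 4 lay on opposite strands without overlap. Exons of the 2 genes overlapped in 251 pairs, by a median of 345 bases or 10.3% of the antisense exons. The antisense RNAs had a median of 3701.5 exonic bases over all isoforms and 5 exon blocks, against 5307 exonic bases for their sense genes.

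Of the 11 members that changed in both fractions (below), 9 had a promoter window in RefSeq's table of GRCh38.p14, from 250 bases before to 50 after the RefSeq start on the transcribed strand. The 4 windows that hold no annotated UTR are shown. VLDLR-AS1, HSD11B1-AS1 and LOXL1-AS1 rose in both fractions and TMPO-AS1 fell. Capitals mark the core of the cyclic AMP response element, TGACGT, searched on both strands. It is in 2 of the 9 windows and in 0 of the 5 not shown, 190 bases before the RefSeq start of HSD11B1-AS1 and 136 bases before that of TMPO-AS1. The RefSeq start of TMPO-AS1 lies 196 bases inside the GENCODE gene, so these letters are inside that gene and not before it. The RefSeq start of VLDLR-AS1 lies 84 bases inside its GENCODE gene, and those of HSD11B1-AS1 and LOXL1-AS1 are the same in both. The windows of VLDLR-AS1 and LOXL1-AS1 hold no match to the motifs searched.
VLDLR-AS1, chr9:2622324-2622623, minus strand: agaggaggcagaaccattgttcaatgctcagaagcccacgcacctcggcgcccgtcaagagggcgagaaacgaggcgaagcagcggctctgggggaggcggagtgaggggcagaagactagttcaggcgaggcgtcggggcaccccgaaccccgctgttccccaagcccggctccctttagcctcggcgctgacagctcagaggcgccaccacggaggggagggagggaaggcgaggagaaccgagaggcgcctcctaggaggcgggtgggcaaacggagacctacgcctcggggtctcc
TMPO-AS1, chr12:98516177-98516476, minus strand: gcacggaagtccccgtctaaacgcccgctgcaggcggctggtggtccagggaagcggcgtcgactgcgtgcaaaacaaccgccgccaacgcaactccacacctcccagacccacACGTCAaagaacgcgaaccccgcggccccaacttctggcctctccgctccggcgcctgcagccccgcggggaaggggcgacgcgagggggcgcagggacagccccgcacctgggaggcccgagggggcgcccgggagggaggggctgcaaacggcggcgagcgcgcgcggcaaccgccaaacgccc
HSD11B1-AS1, chr1:209724076-209724375, minus strand: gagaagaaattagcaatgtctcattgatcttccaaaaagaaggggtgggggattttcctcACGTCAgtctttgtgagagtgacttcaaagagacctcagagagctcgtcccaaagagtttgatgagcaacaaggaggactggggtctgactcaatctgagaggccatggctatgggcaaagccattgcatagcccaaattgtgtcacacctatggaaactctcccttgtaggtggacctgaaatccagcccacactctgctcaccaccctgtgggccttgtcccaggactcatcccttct
LOXL1-AS1, chr15:73928199-73928498, minus strand: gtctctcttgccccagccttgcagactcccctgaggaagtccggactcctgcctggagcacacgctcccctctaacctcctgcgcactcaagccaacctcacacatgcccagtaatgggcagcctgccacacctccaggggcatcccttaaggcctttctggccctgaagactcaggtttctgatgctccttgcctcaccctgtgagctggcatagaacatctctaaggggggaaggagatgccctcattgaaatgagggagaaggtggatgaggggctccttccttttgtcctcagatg

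Of all 344 members, 266 had a promoter window in the RefSeq table. The cyclic AMP response element core was in 35 of them, or 13.2%, and in 8.32% of 27305 promoters of the same length. The E-box CACGTG, a site of basic helix-loop-helix factors, was in 27 (10.2%), against 7.43% of all promoters. The C/EBP-ATF response element core TGATGCA, the form bound by ATF4 with a C/EBP partner, was in 2 (0.752%), against 2.69% of all promoters. Among 26 windows of members called higher with GC7 in a fraction, 4 held the cyclic AMP response element core, 0 the C/EBP-ATF response element core and 1 the E-box. Among 8 windows of members called lower these counts were 2, 1 and 1. A match is a description of letters and not of binding.

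Most antisense RNAs were of low abundance, and a few reached the level of ordinary mRNAs. In the cytoplasm of the authors' deposited table, members ran from 20.1 to 2477 normalized counts with a median of 86.9, and 184 of 344 were under 100. Their sum came to 2278 per 1000000 of all normalized counts in the cytoplasm and 2762 per 1000000 in polysomes. VPS9D1-AS1 was the most abundant, at 2477 in the cytoplasm and 3305 in polysomes of the authors' deposited table. EPB41L4A-AS1, a host of a small nucleolar RNA, followed at 1835 in the cytoplasm and 1582 in polysomes of the authors' deposited table. FGD5-AS1 stood at 1643 and ZNF232-AS1 at 1565 in the cytoplasm of the authors' deposited table. NOP14-AS1 at 1276 and MAPKAPK5-AS1 at 1151 completed the 6 most abundant in the authors' deposited table.

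Per kilobase of exon, antisense RNAs mostly stood below the gene they oppose, where that gene was measured. Among 296 pairs with both measured and annotated, the cytoplasmic level per 1000000 and kilobase was lower for the antisense RNA in 209 pairs and higher in 87. It was over 10-fold lower in 88 pairs. Of the 335 annotated pairs, those whose sense gene was not measured did not enter. The lowest cytoplasmic mean of any measured gene was 12.1, so sense genes of very low level may be among those left out. Leaving them out can lower the share of pairs in which the antisense RNA stood higher. The median was 0.871 for antisense RNAs and 2.86 for sense genes on this scale, and the median log2 ratio within pairs was -1.77. VPS9D1-AS1, however, stood at 48.3 against 1.62 for VPS9D1, which codes for a protein with a VPS9 domain. EPB41L4A-AS1 stood at 14.6 against 0.450 for EPB41L4A, a band 4.1 family gene.

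In their level in heavy polysomes relative to the cytoplasm the antisense RNAs lay close to mRNAs. The ratio of polysomal to cytoplasmic level, each per 1000000 of its fraction and taken over vehicle and GC7 libraries, had a median log2 of 0.32 over the 344 members. The middle 50% lay between -0.02 and 0.60, and 73.8% were above 0. The median log2 ratio was 0.35 over all 15747 genes, 0.37 over 12899 protein-coding genes, 0.34 over 495 other long noncoding RNAs at the same minimum, and 0.37 over the 296 sense genes. Head-to-head members had a median of 0.31 and overlapping ones 0.34. The scale depends on the mitochondrial mRNAs, which hold 100901 per 1000000 in the cytoplasm and 6342 per 1000000 in polysomes: scaled to the other genes, the median of the members was 0.14. The ratio is of means, carries no error and was not tested. It compares levels scaled within each fraction and does not give the part of an RNA that is bound by ribosomes. The cytoplasmic libraries held mitochondrial mRNAs and the nuclear-retained MALAT1 although both compartments were spun out. Nuclear RNA left in the lysate may therefore be part of the cytoplasmic level of a member.

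**Figure D1:**
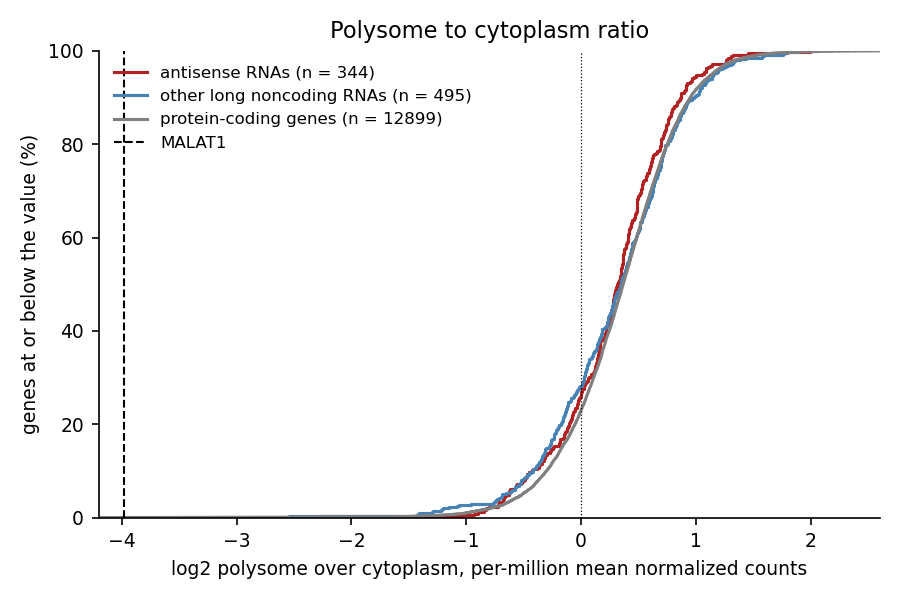
Cumulative share of genes by log2 ratio of polysomal to cytoplasmic mean normalized count per 1000000, for 344 antisense RNAs, 495 other long noncoding RNAs and 12899 protein-coding genes. The 3 curves run close together with medians of 0.32, 0.34 and 0.37, and the dashed line marks MALAT1, a nuclear-retained RNA, at -3.98.

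The listed nuclear-retained RNAs spread widely on this scale, with a median log2 ratio of -0.17 and 3 of the 6 measured above 0. MALAT1, held in nuclear speckles, had a log2 ratio of -3.98, with 4563 normalized counts in the cytoplasm and 322 in polysomes of the authors' deposited table. NEAT1, the scaffold of paraspeckles, had a log2 ratio of -0.69, and 12 antisense RNAs lay below it. FTX, TUG1 and PVT1 had log2 ratios of 0.54, 0.22 and 0.15. Over the 13 mitochondrially encoded mRNAs, which are translated inside mitochondria, the median log2 ratio was -3.79. The lowest antisense RNA, CA3-AS1, had a log2 ratio of -2.25, with 61.3 counts in the cytoplasm and 14.3 in polysomes of the authors' deposited table. Next came VASH1-AS1 with a log2 ratio of -1.03, while VASH1, which codes for a tubulin carboxypeptidase, had 0.79. STX17-AS1 (-0.93), KANSL1-AS1 (-0.90), SCOC-AS1 (-0.85) and COA6-AS1 (-0.84) followed, so that 2 members were below a log2 ratio of -1. Members were selected on cytoplasmic counts, the denominator of this ratio, so both ends of the ranking depend on the minimum. Just under the minimum, HOXB-AS3 had a log2 ratio of -1.11, NEXN-AS1 0.70 and USP27X-AS1 0.94.

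At the high end, 19 members exceeded a log2 ratio of 1. CCDC183-AS1 stood at 1.99, with 21.4 counts in the cytoplasm and 95.0 in polysomes of the authors' deposited table. ASH1L-AS1, opposite a histone methyltransferase gene, stood at 1.79, with 28.9 and 112 counts in the authors' deposited table. ST20-AS1 (1.45), PDCD4-AS1 (1.33), WARS2-AS1 (1.31) and TDRKH-AS1 (1.27) followed in log2 ratio. PDCD4, a translation inhibitor that binds eIF4A, had a log2 ratio of -0.23, below that of its antisense RNA. Across 298 pairs the ratios of antisense RNA and sense gene had a Pearson r of -0.004 and a Spearman rho of 0.03, a description over genes that share libraries.

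The shortest members had the lowest ratios. With the members split by length into 3 groups of 114, those with 378 to 2358 exonic bases were lowest: the median log2 ratio was 0.06 and 63 of 114 were above 0. It was 0.41 in the middle group (91 of 114 above 0) and 0.38 in the longest group (99 of 114), which spanned 5647 to 37876 bases. Protein-coding genes in the same ranges of length had medians of 0.22, 0.42 and 0.36. Spearman's rho of ratio and log exonic length was 0.33 over 342 members and -0.02 over protein-coding genes. Exonic bases are those of the annotation over all isoforms, not of the transcript in these cells.

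GC7 changed a small number of antisense RNAs in the fractions, and more of the calls were increases than decreases. Calls are those of the authors' deposited table, an adjusted p under 0.05. Its fold changes are shrunken toward 0. In the cytoplasm 16 of 344 members were called (4.65%), 12 higher and 4 lower, against 4.24% of all 15747 genes (2.29% higher, 1.95% lower). In polysomes 36 were called (10.5%), against 11.1% of all genes. Of these, 28 were higher (8.14% of members, 5.61% of all genes) and 8 lower (2.33% of members, 5.48% of all genes). Over all members the median log2 fold change was 0.02 in the cytoplasm and 0.03 in polysomes, and -0.004 and -0.005 over all genes. Other long noncoding RNAs had 20 higher and 6 lower of 495 in the cytoplasm, and 48 higher and 28 lower in polysomes. Of the 251 members whose exons overlap the sense gene, 11 were higher and 4 lower in the cytoplasm, and 25 and 7 in polysomes. Of the 84 members without such overlap these counts were 1 and 0, and 3 and 0. In the former, reads of the pair cannot be told apart if they were counted without strand. None of these differences in share was tested.

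In both fractions together 11 members were called in the same direction (3.20%, against 3.02% of all genes), 8 higher and 3 lower. VLDLR-AS1 (chr9:2421597-2622457, minus strand), opposite the very low density lipoprotein receptor gene, had the largest shrunken log2 fold change of the set in both fractions. The 6-library mean and the unshrunken fold change of the authors' deposited table imply about 58.3 normalized counts with vehicle and 240 with GC7 in the cytoplasm, and 109 and 384 in polysomes. Such implied means are approximations and carry no spread. Its log2 fold change in the authors' deposited table was 1.95 in the cytoplasm (adjusted p = 5.99e-09, SE 0.31) and 1.76 in polysomes (adjusted p = 3.48e-13, SE 0.23). In whole cells it was 3.33 (unadjusted p = 0.00121) in the authors' deposited table. VLDLR itself was at 0.11 (SE 0.19) in the cytoplasm, 0.01 (SE 0.15) in polysomes and -0.08 in whole cells of the authors' deposited table, with no call. The exons of the pair overlap by 260 bases and their starts lie 1275 bases apart.

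**Figure D2:**
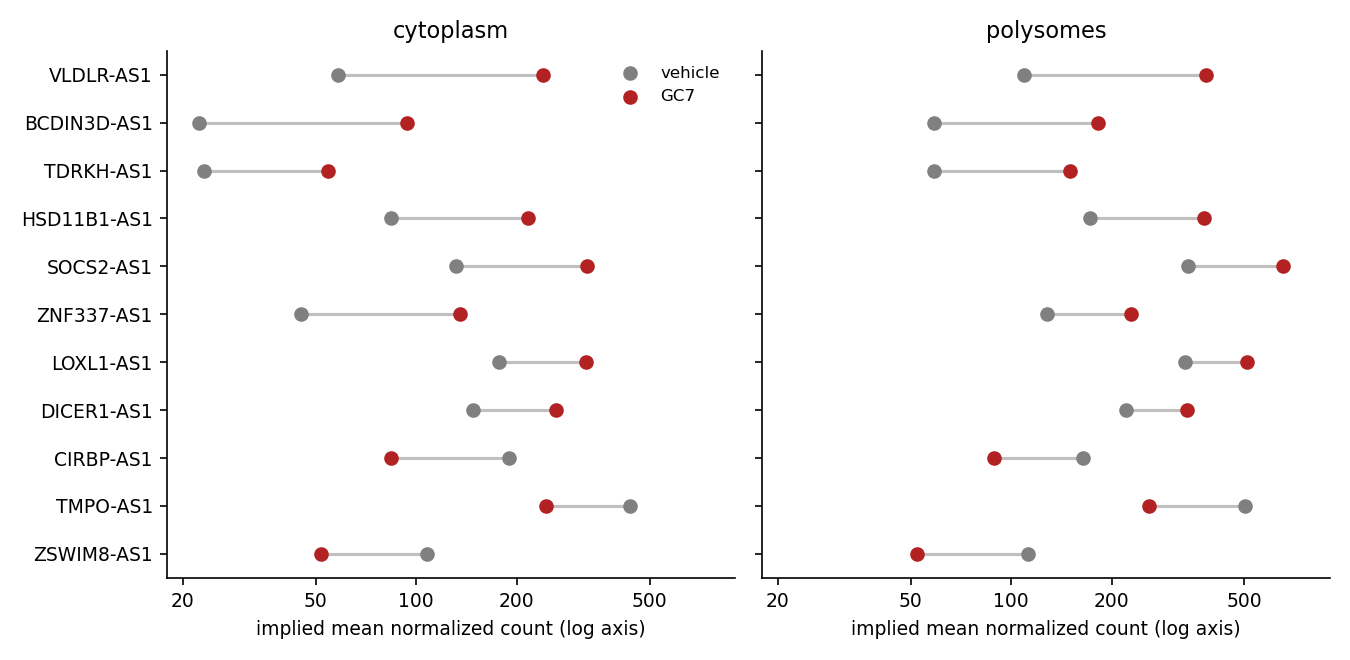
Normalized counts with vehicle (grey) and GC7 (red) for the 11 antisense RNAs called in both fractions, as implied by the mean over libraries and the unshrunken fold change, on a log axis. GC7 lies to the right for the upper 8 and to the left for CIRBP-AS1, TMPO-AS1 and ZSWIM8-AS1, and VLDLR-AS1 runs from 58.3 to 240 in the cytoplasm.

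BCDIN3D-AS1 (chr12:49827913-49841143, plus strand), opposite an RNA methyltransferase gene, had implied means of 22.4 with vehicle and 94.0 with GC7 in the cytoplasm, and 59.0 and 182 in polysomes. Its log2 fold change in the authors' deposited table was 1.85 (SE 0.49, adjusted p = 0.000638) and 1.51 (SE 0.31, adjusted p = 8.11e-06). Unshrunken, its cytoplasmic value of 2.07 is above that of VLDLR-AS1 at 2.04. SOCS2-AS1 (chr12:93542022-93571768, minus strand), opposite the gene of a suppressor of cytokine signalling, had implied means of 131 and 325 in the cytoplasm and 339 and 654 in polysomes. Its log2 fold change in the authors' deposited table was 1.19 (SE 0.29) and 0.87 (SE 0.20), both called. Neither BCDIN3D (0.29 and 0.05) nor SOCS2 (0.13 and 0.17) was called in cytoplasm or polysomes of the authors' deposited table. TDRKH-AS1, opposite a Tudor domain gene of the piRNA pathway, was at 0.94 and 1.24 in the authors' deposited table, and TDRKH at -0.03 and -0.02. HSD11B1-AS1, opposite the gene of the enzyme that regenerates cortisol, rose by 1.15 (SE 0.41) and 1.00 (SE 0.29) in the authors' deposited table. Its exons do not overlap those of HSD11B1, for which no value was used here.

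ZNF337-AS1 (chr20:25624045-25689032, plus strand), opposite a zinc finger gene, rose by 1.49 (SE 0.28) in the cytoplasm and 0.69 (SE 0.26) in polysomes of the authors' deposited table. LOXL1-AS1, opposite a lysyl oxidase gene of elastic fibres, was at 0.73 and 0.54 in the authors' deposited table, and at 0.37 in whole cells (unadjusted p = 0.713). DICER1-AS1, head-to-head with the gene of the nuclease that cuts microRNA precursors, was at 0.71 (SE 0.24) and 0.51 (SE 0.19) in the authors' deposited table. DICER1 was at -0.18 and 0.01 there, with no call.

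Of the 3 antisense RNAs lower in both fractions, CIRBP-AS1 had a sense gene that was called, in the opposite direction. CIRBP-AS1 (chr19:1267471-1270260, minus strand) had implied means of 190 with vehicle and 83.9 with GC7 in the cytoplasm, and 164 and 88.7 in polysomes. It fell by 1.02 (SE 0.31, adjusted p = 0.00382) and by 0.76 (SE 0.25, adjusted p = 0.00383) on the log2 scale of the authors' deposited table. CIRBP, a cold-inducible RNA-binding protein, rose by 0.46 (adjusted p = 0.00401, SE 0.13) and 0.42 (adjusted p = 0.00369, SE 0.13) in the authors' deposited table. The pair lies on opposite strands with 4 bases of exon overlap. TMPO-AS1 (chr12:98512973-98516422, minus strand) had implied means of 438 and 245 in the cytoplasm and 502 and 258 in polysomes. It fell by 0.67 (SE 0.28) and by 0.90 (adjusted p = 4.01e-06, SE 0.18) in the authors' deposited table, while TMPO, a nuclear lamina protein gene, was at -0.02 in both. ZSWIM8-AS1, opposite the gene of a ubiquitin ligase adaptor in microRNA decay, fell by 0.82 (SE 0.38) and by 0.94 (SE 0.31) in the authors' deposited table. ZSWIM8 was at -0.12 and -0.05 there, and 943 of the 1460 exonic bases of ZSWIM8-AS1 overlap exons of ZSWIM8.

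**Figure D3:**
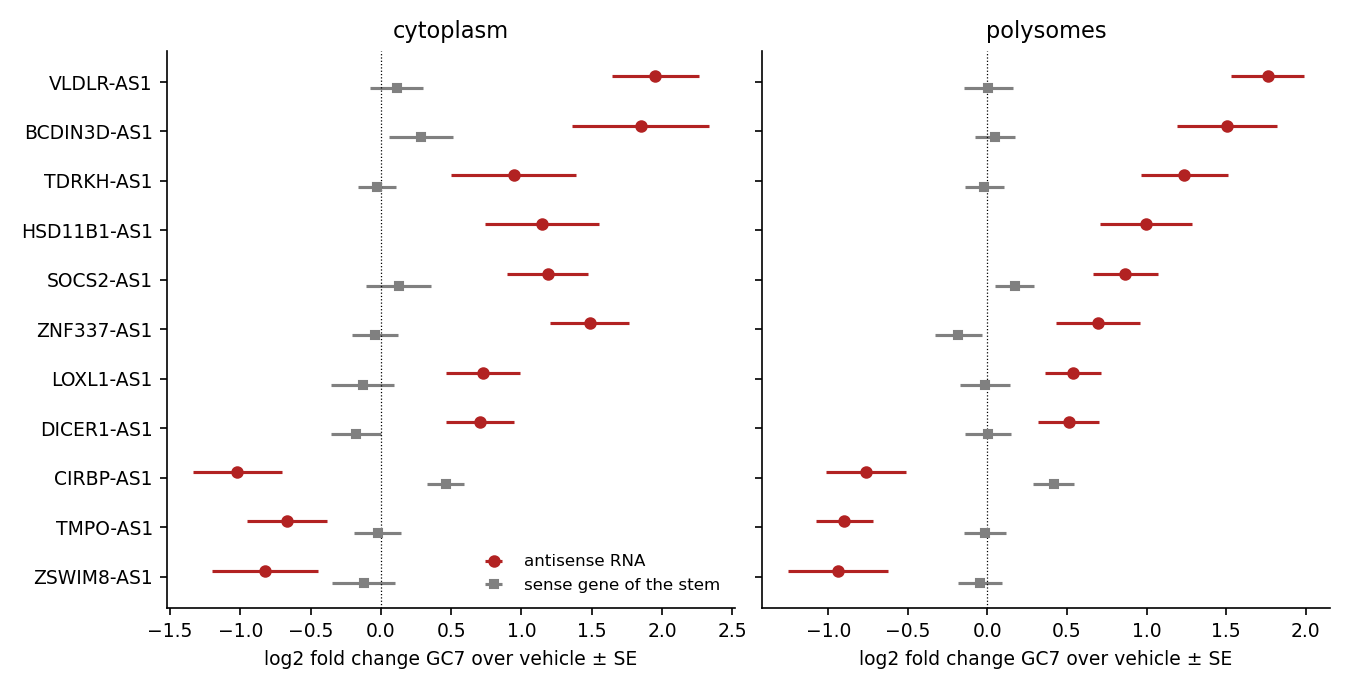
Log2 fold change with GC7 and its SE in cytoplasm (left) and polysomes (right) for the 11 antisense RNAs called in both fractions (red circles) and for the sense gene of the same stem (grey squares), from the authors' deposited table. Sense genes sit near 0 except CIRBP at 0.46 and 0.42, opposite in sign to CIRBP-AS1, and HSD11B1 has no value.

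The sense gene was called beside its called antisense RNA in 2 of 14 pairs in the cytoplasm (14.3%, against 5.03% of all measured pairs) and in 4 of 31 in polysomes (12.9%, against 10.7%). In the cytoplasm 14 called members had a measured sense gene: EML2 was called in the same direction as EML2-AS1 (0.63 and 0.70 in the authors' deposited table), CIRBP in the opposite one, and 12 were not called. Over all 298 measured pairs, the sense gene was called in 15. In polysomes 31 called members had a measured sense gene, of which 2 were called in the same direction, 2 in the opposite one and 27 not at all, against 32 sense genes called over the 298 pairs. MSC, a basic helix-loop-helix repressor gene, stood at 0.70 beside MSC-AS1 at 0.79 in the authors' deposited table. ARHGEF26, an exchange factor gene, fell by 0.47 beside ARHGEF26-AS1, which fell by 0.69 in the authors' deposited table. LAMTOR5, a subunit gene of the Ragulator complex, fell by 0.49 while LAMTOR5-AS1 rose by 0.57 in the authors' deposited table. The sign was the same in 167 of the 298 pairs in the cytoplasm and in 172 in polysomes. Spearman's rho of the paired log2 fold changes was 0.13 in the cytoplasm and 0.09 in polysomes. It was 0.16 and 0.08 over the 221 pairs whose exons overlap, and 0.03 and 0.11 over the 75 without exon overlap.

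In polysomes alone 25 members were called (7.27%, against 8.07% of all genes), 20 higher and 5 lower, and all 25 had the same sign in the cytoplasm. Over all 344 members, cytoplasmic and polysomal change had a Pearson r of 0.75. The share with the same sign over all genes was not counted, so the 25 show nothing particular to antisense RNAs. WEE2-AS1, opposite an oocyte kinase gene, had implied means of 52.7 with vehicle and 131 with GC7 in polysomes, and 67.3 and 81.0 in the cytoplasm. It rose by 1.18 in polysomes (SE 0.30) and was at 0.06 in the cytoplasm (SE 0.19) of the authors' deposited table. EPB41L4A-AS1 rose by 0.80 (SE 0.20, adjusted p = 0.000174) in polysomes and was at 0.07 in the cytoplasm of the authors' deposited table. THAP9-AS1, opposite a gene derived from a DNA transposon, rose by 0.76 (SE 0.17) in polysomes and was at 0.86 (SE 0.51) in the cytoplasm without a call in the authors' deposited table. VPS9D1-AS1, the most abundant member, rose by 0.55 (SE 0.15) in polysomes of the authors' deposited table. The others called higher were ELFN1-AS1 (0.94), RUNDC3A-AS1 (0.89), NRSN2-AS1 (0.83), MSC-AS1, TMEM254-AS1 (0.78), HDAC4-AS1, ATP2B1-AS1, FOXN3-AS1, WARS2-AS1 (0.63), CCDC18-AS1, PCBP1-AS1, LAMTOR5-AS1, SLC25A21-AS1, SLC9A3-AS1, LBX2-AS1 and MAP3K14-AS1 (0.42), with log2 values of the authors' deposited table. Those called lower were HOXA-AS2, which fell by 0.95, ARHGEF26-AS1, ARHGAP5-AS1, which fell by 0.68, NUP153-AS1, which fell by 0.43, and ASB16-AS1, which fell by 0.34 in the authors' deposited table.

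In the cytoplasm alone 5 members were called (1.45%, against 1.22% of all genes). TTC23L-AS1 (0.97), EML2-AS1 (0.70), KTN1-AS1 (0.57) and NOP14-AS1 (0.46) were higher in the authors' deposited table, and AGAP2-AS1 fell by 0.43. A call in 1 fraction and not in the other does not show a difference between them. That difference, polysomal minus cytoplasmic unshrunken log2 fold change, was tested for 15669 genes by a normal test, and after Benjamini-Hochberg adjustment 0% were called. At an unadjusted p under 0.05 it passed for 5 of 344 members (1.45%), against 2.14% of all genes. These were KTN1-AS1 (-0.63, SE 0.27), TTC23L-AS1 (-1.02, SE 0.43), ZNF337-AS1 (-0.75, SE 0.37), WEE2-AS1 (1.04, SE 0.47) and ZNF582-AS1 (0.97, SE 0.49). The smallest adjusted p of all genes was 0.9996. The 2.14% of all genes that passed unadjusted is less than the share of 0.05 expected without any difference. The test was thus conservative, and its lack of calls does not show equal change in the fractions. With errors correlated at 0.5 between fractions 20 genes were called, 0 of them antisense RNAs.

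**Figure D4:**
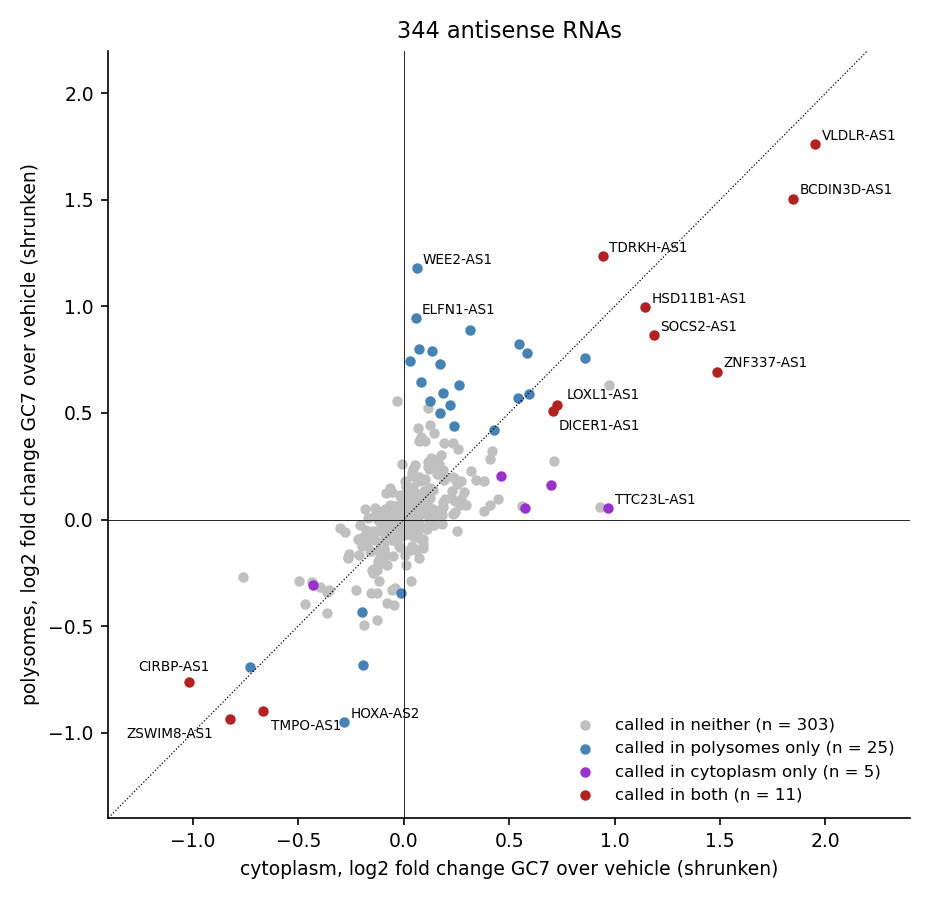
Log2 fold change with GC7 in cytoplasm against polysomes for each of the 344 antisense RNAs, as deposited and shrunken, coloured by where the adjusted p was under 0.05; the dotted line marks equal change. The 11 called in both run from VLDLR-AS1 at 1.95 and 1.76 to ZSWIM8-AS1 at -0.82 and -0.94, ZNF337-AS1 lies below the line at 1.49 and 0.69, and WEE2-AS1 lies high in polysomes with 0.06 in the cytoplasm.

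In whole cells the antisense RNAs stood higher with GC7 than genes in general, though no single one passed after adjustment. The whole-cell table holds 323 of the 344 members. Reversed in sign, their values in the authors' deposited table had a median log2 of 0.18, and 208 of 323 (64.4%) were above 0. The 323 include 8 members without whole-cell reads, which share a constant value of -0.07 and so count as not above 0. Over all 14099 genes in both tables the median was -0.04 and 46.9% were above 0. The median was -0.05 over protein-coding genes, -0.06 over the sense genes and 0.16 over other long noncoding RNAs. At an unadjusted p under 0.05, 28 members passed (8.67%), 25 higher (7.74%) and 3 lower (0.929%), against 3.11% of all genes (2.08% higher, 1.04% lower). Without any change, a share of 0.05 would be expected to pass unadjusted, which is more than the 3.11% of all genes that did. Members named at this p may therefore include ones without a change. After Benjamini-Hochberg adjustment 0% of genes were called, and the smallest adjusted p was 0.642. Of 480 other long noncoding RNAs, 31 were higher and 4 lower at the same unadjusted p. Of 247 members with exon overlap, 22 were higher and 1 lower, and of 69 without it, 3 and 1. The share above 0 was 65.2% in each.

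In the ranges of cytoplasmic counts below, the whole-cell median was above 0 for antisense and other long noncoding RNAs and below 0 for protein-coding genes. Levels in the whole-cell libraries are not known, so genes were not matched on them. Whether abundance plays a part in the whole-cell values was not tested. Between 20 and 100 cytoplasmic counts, and leaving out the constant value that genes without whole-cell reads share, the median whole-cell log2 value was 0.17 for 169 antisense RNAs, 0.28 for 234 other long noncoding RNAs and -0.08 for 1767 protein-coding genes. Between 100 and 1000 counts it was 0.28, 0.14 and -0.09. At an unadjusted p under 0.05, 8.88% of the antisense RNAs and 3.57% of the protein-coding genes of the lower range were higher. In the upper range the shares were 7.30% and 1.42%. Whole-cell RNA includes the nucleus, and no fraction of nuclear RNA was measured.

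**Figure D5:**
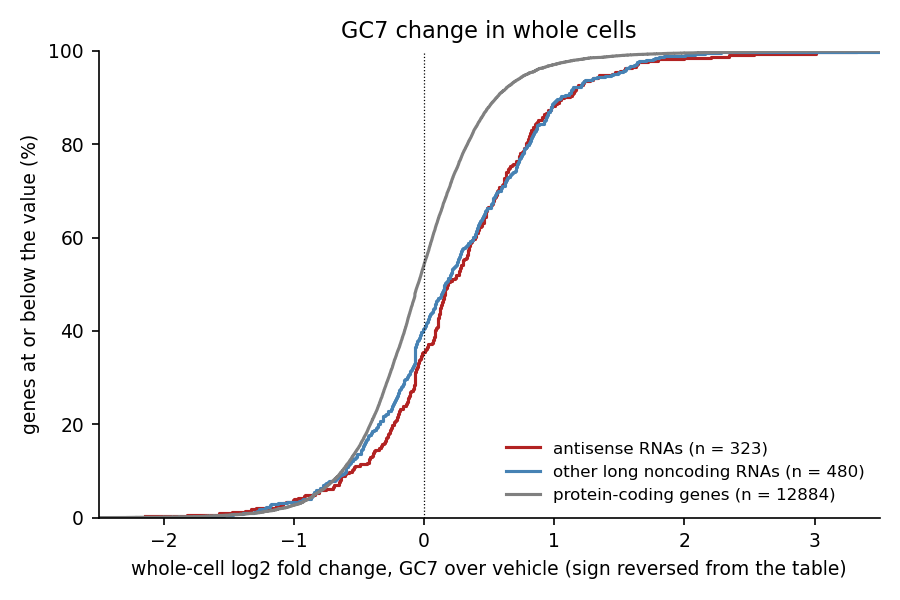
Cumulative share of genes by whole-cell log2 fold change with GC7, sign reversed from the authors' deposited table, for 323 antisense RNAs, 480 other long noncoding RNAs and 12884 protein-coding genes. The 2 noncoding curves lie to the right of the protein-coding one, with medians of 0.18 and 0.16 against -0.05.

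The 25 antisense RNAs higher in whole cells at an unadjusted p under 0.05 had log2 values from 0.80 to 3.33, with a median of 1.50. After VLDLR-AS1 the largest values in the authors' deposited table were KCNK15-AS1 (3.01), NQO2-AS1 (2.53), DNAJC27-AS1 (2.34), ENTPD3-AS1 (2.21) and FUT8-AS1 (2.00). ENTPD3-AS1, with 190 cytoplasmic counts, was at 0.05 in the cytoplasm and 0.09 in polysomes of the authors' deposited table. NQO2-AS1, at 20.6 counts, was at 0.05 and 0.08 there. Of the 25, 3 were also called higher in a fraction, which is 12.0% beside 9.30% of all 344 members: VLDLR-AS1, HSD11B1-AS1 (1.54 in whole cells of the authors' deposited table, unadjusted p = 0.0334) and TMEM254-AS1 (1.18, unadjusted p = 0.0444). Deposited values were positive in both fractions for 19 of the 25, and 15 of the 25 had under 100 cytoplasmic counts. Of all 344 members, 199 were positive in the cytoplasm, 191 were positive in polysomes, and 184 had under 100 cytoplasmic counts. The sense gene was in the whole-cell table for 19, of which 12 were above 0, beside 45.4% of all 295 sense genes there, and 1 passed at the same p. That gene was ARHGEF2, a microtubule-bound exchange factor gene, at 1.17 beside ARHGEF2-AS2 at 1.64 in the authors' deposited table. Other members higher at this p included STARD7-AS1, PSMG3-AS1, PPP3CB-AS1, UGDH-AS1, SGMS1-AS1, ZNF793-AS1, TMEM202-AS1, RORA-AS1, ZNF790-AS1, ZBED3-AS1, LIPE-AS1, PRKG1-AS1, CD27-AS1, EIF1B-AS1 and STX18-AS1. Lower at this p were IER3-AS1 (-2.15), HOXC-AS2 (-1.37) and PARD6G-AS1 (-1.33) in the authors' deposited table, each under 100 cytoplasmic counts.

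Of 50 measured genes on 3 lists that handle such RNAs, 0 were called in the cytoplasm and 5 (10.0%) in polysomes, near the 11.1% of all genes. Of 17 nonsense-mediated decay factors, 0 were called in the cytoplasm and 1 in polysomes, CASC3 of the exon junction complex, which rose by 0.53 (SE 0.13) in the authors' deposited table. Of 17 genes of the nuclear RNA exosome and its adaptors, 0 were called in the cytoplasm and 3 in polysomes. EXOSC8, a core subunit, rose by 0.32 (SE 0.13), ZFC3H1, which links the exosome to polyadenylated nuclear RNA, fell by 0.58 (SE 0.28), and the adaptor MPHOSPH6 fell by 0.35 (SE 0.16) in the authors' deposited table. Of 16 measured genes that bind or sense double-stranded RNA, 0 were called in the cytoplasm and TARBP2, a partner of DICER1, fell by 0.43 (SE 0.15) in polysomes of the authors' deposited table. None of 6 measured nuclear-retained long noncoding RNAs was called in either fraction. Among 14 snoRNA hosts and other spliced long noncoding RNAs, 3 were called higher and 0 lower in the cytoplasm, and 6 higher and 2 lower in polysomes. They include GAS5, which rose by 1.36 (SE 0.26) in the cytoplasm and 1.69 (SE 0.22) in polysomes of the authors' deposited table, and EPB41L4A-AS1, a member of both lists. Among 16 ATF4 targets, with ATF4 itself and VLDLR in that list, 12 were higher in the cytoplasm and 14 in polysomes, and 0 and 1 lower. Of all genes, 2.29% were higher in the cytoplasm and 5.61% in polysomes. The 1 called lower was ATF4 itself, at -0.37 (SE 0.14) in polysomes of the authors' deposited table. Of the 13 mitochondrially encoded mRNAs, 12 were called lower in each fraction and 0 higher.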

How the data were processed

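Samples of DU145 whole cells, cytoplasm and polysomes, with or without GC7, were grouped by the labels. STAR 2.7.8a, Salmon 1.4.0 and GRCh38 appear in the submitters' processing notes, which do not say what each was used for. Per the file headers, the deposited fraction table gives a mean normalized count (a signal scaled for depth), and for each gene the log2 fold change, its SE, and the p-value before and after adjustment. The whole-cell table deposited by the authors gives a log2 fold change, its base read from the values, and an unadjusted p-value. Depth per sample cannot be had from them, nor can intervals for single samples.

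The members and gene lists were chosen with earlier results of these data known. Named members are those called in a fraction or in the difference, those with an unadjusted whole-cell p under 0.05, the 6 most abundant, and the 6 highest and 6 lowest ratios. An item that this rule names is not reported here. Members with an unadjusted p for the difference, and those at the minimum, were named after their values were seen, and the ranges of exonic length and of counts were set after seeing the data. The fraction fold changes are shrunken. Unshrunken values were recovered under a Cauchy prior of scale 0.195 (cytoplasm) and 0.205 (polysomes), matched to the deposited p-values, with z within 0.1 for 97.4% and 99.5% of genes. The 73 and 9 genes whose z was farther than 0.5 from it did not enter the test of the difference. This test takes the errors of the fractions as independent. Tests on read counts had no counts to use. Positions come from GENCODE 44 and promoters from RefSeq GRCh38.p14. Python 3.11.15, numpy 2.4.6, pandas 2.3.3 and scipy 1.17.1 were used. Alternatives tried were other minimums, thresholds, scalings and unshrunken values.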

Additional observations from a re-analysis of the deposited data

How the results depend on the processing

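The median log2 ratio of polysomes to cytoplasm, 0.32, was 0.14 scaled to genes that are not mitochondrial, 0.47 without scaling and -0.030 centred on the median of all genes, so its sign is one of scale. Minus the median of all genes it stayed between -0.07 and -0.01 under the alternatives run. Where calls also had to exceed 1 in log2 size, those in the cytoplasm fell to 5 higher and 1 lower, and in polysomes to 4 higher and 0 lower. At an adjusted p under 0.1, 20 were higher in the cytoplasm. Unshrunken, the median change was 0.11 in the cytoplasm and 0.082 in polysomes. The whole-cell median was 0.28 at a minimum of 50 counts, and whole-cell calls were 0 adjusted and 28 unadjusted. A minimum of 50, of 10, and of 20 in both fractions left 242, 391 and 341 members. All 52 called values kept their call with adjustment recalculated over the table, which gave 9 members lower in polysomes in place of 8. Unshrunken values keep the sign of the deposited ones by construction, and no call was remade on them. No paired analysis was possible because the tables hold comparisons and no values per library, so the replicate block and leaving out each replicate were not run. Under the minimum, TMEM9B-AS1, at 12.1 counts, was the antisense RNA called, where the authors' deposited table gives a polysomal log2 fold change of 0.73 (adjusted p = 0.0412, SE 0.43). Counts per library would be needed to say what depth allows for members near 20 counts.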
